A study of Mus musculus with 3 samples.

Results

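A set of 10 genes of acid secretion were followed in kidney cells of mice after folic acid (FA) injury. They were chosen by name, as 10 of the 27998 genes in the count files: Atp6v1g3, Atp6v0d2, Atp6v1c2, Atp6v1b1, Atp6v0a4, Car2, Car12, Rhcg, Rhbg and Foxi1. All 10 were detected. Intercalated cells lie between the principal cells of the connecting tubule and collecting duct. They pump protons with a vacuolar H+-ATPase (V-ATPase), a rotary pump made of a cytosolic V1 part that splits ATP and a membrane V0 part that carries the protons. Carbonic anhydrases supply the protons and bicarbonate, and the Rh glycoproteins Rhcg and Rhbg carry ammonia, the main buffer that takes up secreted acid. Type A intercalated cells secrete protons into the urine and return bicarbonate to the blood by Slc4a1 (AE1). Type B intercalated cells secrete bicarbonate by Slc26a4 (pendrin). Foxi1 is the forkhead transcription factor that intercalated cells need in order to form.

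Kidneys of 2 Aoah-/- mice (numbered 2 and 3) and 1 WT mouse (numbered 3) were taken 14 days after FA, and 1 droplet library was made per mouse by the 10x Genomics 3′ chemistry. All were labelled as 6 to 8 weeks old. The mutated gene had been backcrossed to C57/BL6J, and the study's WT controls were littermates. AOAH (acyloxyacyl hydrolase) removes acyl chains from lipopolysaccharide, and the mutation is not restricted to a cell type. Both genotypes received FA and no library of an untreated or vehicle-treated mouse was analysed here, so the libraries compare genotypes after injury and not injury with health. With 1 WT mouse no test across mice could be made. Values below are given in the order Aoah-/- mouse 2, Aoah-/- mouse 3, WT mouse, as CPM (counts of unique transcript molecules, UMIs, scaled to the same total in all groups of cells), and their intervals are exact 95% Poisson or binomial intervals that cover counting error only. A gene was said to be higher or lower beyond the cut where it was at least 1.5-fold apart on the same side in every library compared, among genes with a mean of at least 50 CPM.

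After filtering, 21368, 19692 and 18202 cells were kept, with medians of 3357, 3678 and 3859 UMIs. The lowest UMI total of a deposited barcode was 500, 1672 and 500, and whether the cells had been called alike is not stated in the sources used here. The libraries shared 171 to 176 barcodes pairwise, which were kept. Aoah itself was at 6.75, 6.19 and 18.2 CPM over all kept cells. The transcript was thus lower over all cells but still counted in the Aoah-/- libraries, and a 3′ count need not cover the mutated part. The study found Aoah chiefly in proximal tubule cells, macrophages and some T lymphocytes. Proximal tubule cells were 37.7, 24.6 and 51.2% of kept cells, and the part of this mix in the Aoah values was not tested.

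Clusters were named by markers that did not hold any of the 10 genes, and the 10 genes were also left out of the genes used for clustering. Intercalated-like cells numbered 1304 (396, 624 and 284). On division, 309 were type A-like (97, 127 and 85 cells) and 320 type B-like (139, 114 and 67 cells). Slc4a1 stood at 785, 821 and 836 CPM in the type A cells, and the 6 type A markers summed to 3551, 3956 and 3804 CPM there against 247, 242 and 228 CPM in type B cells. Slc26a4 stood at 1384, 1340 and 1253 CPM in the type B cells, and the 5 type B markers summed to 2849, 2815 and 2772 CPM against 491, 549 and 575 CPM in type A cells. The types were named from these markers, so their levels describe the naming. No list separated type B cells from other intercalated cells with Slc26a4, so the type B class may hold both. Oxgr1, the 2-oxoglutarate receptor, had been listed for type B but was higher in type A cells (420, 452 and 409 CPM against 175, 212 and 227 CPM).

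A further 76 intercalated-like cells (24, 25 and 27) formed a subcluster led by Lcn2, S100a6, Tmem158, F3, Ankrd1, Muc4, Nupr1, Icam1, Sox9 and the globin Hba-a2. Of these, Lcn2, Tmem158, Nupr1, Icam1 and Sox9 are known from injured epithelium. Lcn2 and Sox9 were lowest in its WT cells (43 and 57 CPM). The subcluster stayed unnamed and is called the injury-led subcluster. The other 599 cells (136, 358 and 105) shared their leading genes with lymphocytes, myeloid cells, proximal tubule or principal cells. They were kept apart as mixed, since no doublet caller was run. The mixed cells made up 34.3, 57.4 and 37.0% of the intercalated-like cells, most in Aoah-/- mouse 3, and 2 of their subclusters (32 and 9 cells) came from that mouse alone.

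Each of the 10 genes is a protein-coding gene at a locus of its own (GRCm38, GENCODE M21 annotation). Of the V1 subunits, Atp6v1g3 lies at chr1:138273738-138289462 (+ strand), Atp6v1c2 at chr12:17284721-17329359 (-) and Atp6v1b1 at chr6:83742990-83758855 (+). The V0 subunits Atp6v0d2 and Atp6v0a4 lie at chr4:19876841-19922605 (-) and chr6:38048483-38124586 (-). Car2 spans chr3:14886273-14900770 (+) and Car12 chr9:66713686-66766845 (+). Rhcg is at chr7:79593363-79617657 (-), Rhbg at chr3:88242874-88254709 (-) and Foxi1 at chr11:34204338-34208089 (-). The 3′ chemistry reads the transcript end, so a count holds the whole gene and does not tell its isoforms apart.

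Since Foxi1 is itself among the genes and the others were high in the same cells, their promoters were searched for the core of the forkhead motif, TGTTTA or TGTTTG, on both strands in the 250 bases before the RefSeq start. RefSeq promoters (GRCm38.p6) were matched for 7 of the 10 genes and not for Atp6v0d2, Car2 and Rhbg. The core was found in 3 of the 7, against 25.3% of all 32851 promoters of the same length. The stretches with a match are shown with the core in capitals, with up to 30 bases on each side, for Atp6v1g3 (chr1:138273642-138273707, +, where the core reads on the other strand, 66 bases before the start), Atp6v1b1 (chr6:83742889-83742954, +, 98 bases before) and Car12 (chr9:66713645-66713685, +, 11 bases before). A match is a description of the letters and not a binding site.
Atp6v1g3: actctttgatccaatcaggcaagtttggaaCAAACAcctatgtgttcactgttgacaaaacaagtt
Atp6v1b1: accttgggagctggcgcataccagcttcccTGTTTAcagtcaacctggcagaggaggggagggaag
Car12: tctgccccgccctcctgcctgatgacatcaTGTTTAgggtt

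Across the kidney, 9 of the 10 genes had their highest mean level in an intercalated cell type, and the exception was Rhcg. Atp6v1g3, Atp6v1c2 and Foxi1 were the most restricted. In the shares that follow, intercalated-like cells include the injury-led and the mixed cells, and the part of the mixed cells was not tested. Intercalated-like cells held 93.3, 92.0 and 95.8% of all Atp6v1g3 UMIs, 91.8, 90.9 and 94.4% of Atp6v1c2 UMIs and 91.3, 90.1 and 95.3% of Foxi1 UMIs. For Atp6v0d2 these shares were 83.6, 80.0 and 88.4%, and for Rhbg 75.8, 75.2 and 77.7%. The remaining genes were shared with other cells. Intercalated-like cells held 61.2, 59.0 and 63.1% of Atp6v1b1 UMIs and 50.5, 44.4 and 45.5% of Rhcg UMIs. They held 40.1, 40.6 and 27.5% of Car12, 29.4, 32.7 and 24.5% of Car2 and 24.7, 24.9 and 18.6% of Atp6v0a4 UMIs. The proximal tubule, at a lower CPM, held more of Atp6v0a4 (49.2, 42.6 and 60.9%) and Car2 (49.0, 39.7 and 58.6%) in each library. It held 45.1, 39.1 and 61.8% of Car12, more than intercalated-like cells in Aoah-/- mouse 2 and the WT mouse. These shares move with the number of cells of each type as well as with the level per cell, and the number of cells caught differed between the libraries.

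**Figure D1:**
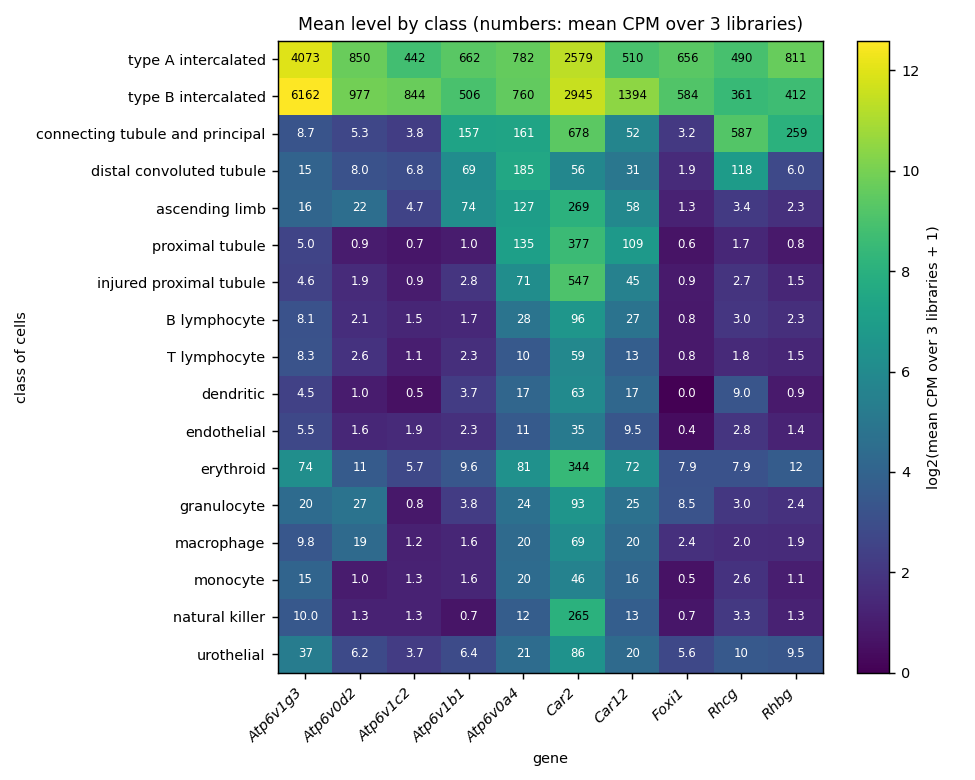
Mean CPM over the 3 libraries of each gene (columns) in each named class of cells (rows), with colour for log2(mean CPM + 1) and the mean CPM printed in each cell. The type A and type B rows hold the highest value of every column but Rhcg, whose highest mean (587 CPM) is in connecting tubule and principal cells.

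Among the V-ATPase subunits, Atp6v1g3, a G subunit of the stalk that joins V1 to V0, was at 4014, 4270 and 3935 CPM in type A cells. In type B cells it was at 5907, 6356 and 6221 CPM. No library of type A cells reached a type B value, and the next class in order, erythroid cells, had a mean of 74.1 CPM.

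Atp6v1c2, a C subunit of V1, was at 395, 425 and 506 CPM in type A and at 808, 854 and 869 CPM in type B cells. The type A values of both Aoah-/- mice were below that of the WT mouse, with intervals (356 to 436 and 390 to 462) clear of the WT interval (463 to 551). The next class in order, the distal convoluted tubule, had a mean of 6.76 CPM.

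Atp6v1b1, the B subunit of V1 that takes part in ATP binding and whose loss causes distal renal tubular acidosis in people, was at 615, 718 and 654 CPM in type A cells. It was at 464, 591 and 462 CPM in type B cells. Here type A was higher in each mouse. Principal cells had 167, 167 and 138 CPM, the ascending limb a mean of 73.8 CPM.

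Atp6v0d2, a d subunit of V0, was at 781, 893 and 876 CPM in type A and 908, 1071 and 952 CPM in type B cells. Atp6v0a4, the a subunit of V0, was at 688, 815 and 842 CPM in type A and 731, 809 and 741 CPM in type B cells. For Atp6v0a4 the types overlapped, and neither type was higher in all 3 libraries. Its next classes were the distal convoluted tubule (182, 185 and 189 CPM) and principal cells (165, 168 and 150 CPM), followed by proximal tubule (134, 147 and 123 CPM).

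**Figure D2:**
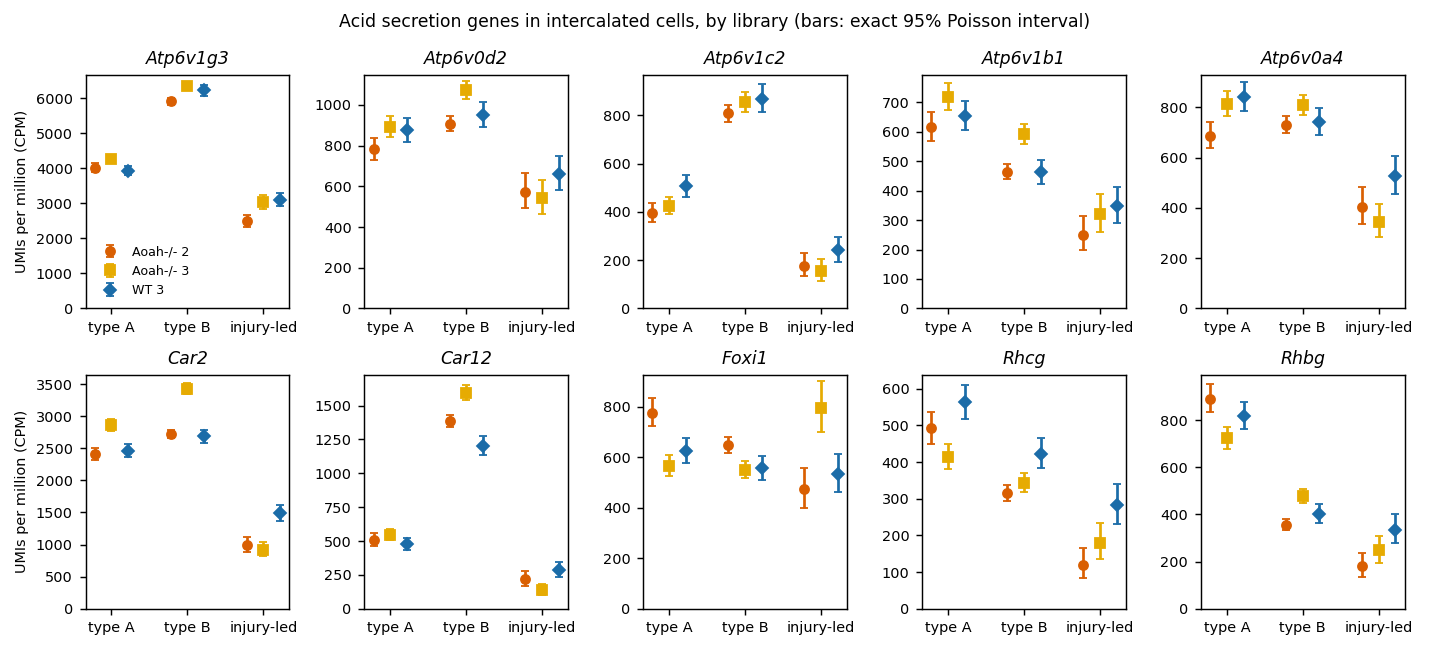
CPM of each gene in type A, type B and injury-led intercalated cells, with 1 point per library (orange circles and yellow squares for the Aoah-/- mice 2 and 3, blue diamonds for the WT mouse) and bars for the exact 95% Poisson interval. Car12, Atp6v1c2 and Atp6v1g3 are higher in type B in each library, and 9 of the 10 genes (all but Foxi1) are lower in the injury-led subcluster than in type A in each library.

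Each of these subunits has sister genes that serve in other cells, and the share of UMIs from the intercalated gene was computed per class. Sister genes can differ in how well their 3′ ends are captured, so the shares are read between classes. Atp6v1g3 gave 94.96, 94.71 and 94.50% of the UMIs of Atp6v1g3 and Atp6v1g1 in type A cells. The share was 95.4, 95.5 and 95.1% in type B cells and 5.9, 6.1 and 0.9% in principal cells. The G subunit pair thus had opposite orders in neighbouring cell types. So did Atp6v1c2 and Atp6v1c1, with the share from Atp6v1c2 at 88.8, 88.7 and 91.3% in type A, 93.7, 92.5 and 92.9% in type B and 7.0, 7.6 and 8.7% in principal cells. Atp6v0d2 gave 95.77, 94.96 and 93.52% of UMIs against Atp6v0d1 in type A and 93.0, 92.8 and 93.2% in type B cells.

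The other subunits were less particular to intercalated cells. Atp6v1b1 gave 84.6, 87.6 and 85.3% of its UMIs with Atp6v1b2 in type A and 79.5, 80.8 and 78.5% in type B cells, and principal cells were not far below at 69.1, 69.5 and 71.3%. In the distal convoluted tubule the share was 43.7, 45.9 and 44.4%, and in proximal tubule 0.5, 0.8 and 0.3%. Atp6v0a4 gave 93.78, 94.34 and 95.03% of the a subunit UMIs (with Atp6v0a1, Atp6v0a2 and Tcirg1) in type A cells and 92.7, 92.5 and 91.3% in type B cells. It also led in principal cells (75.7, 70.1 and 72.5%) and proximal tubule (73.2, 73.5 and 74.8%), but not in T lymphocytes (13.28, 15.02 and 15.38%).

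**Figure D3:**
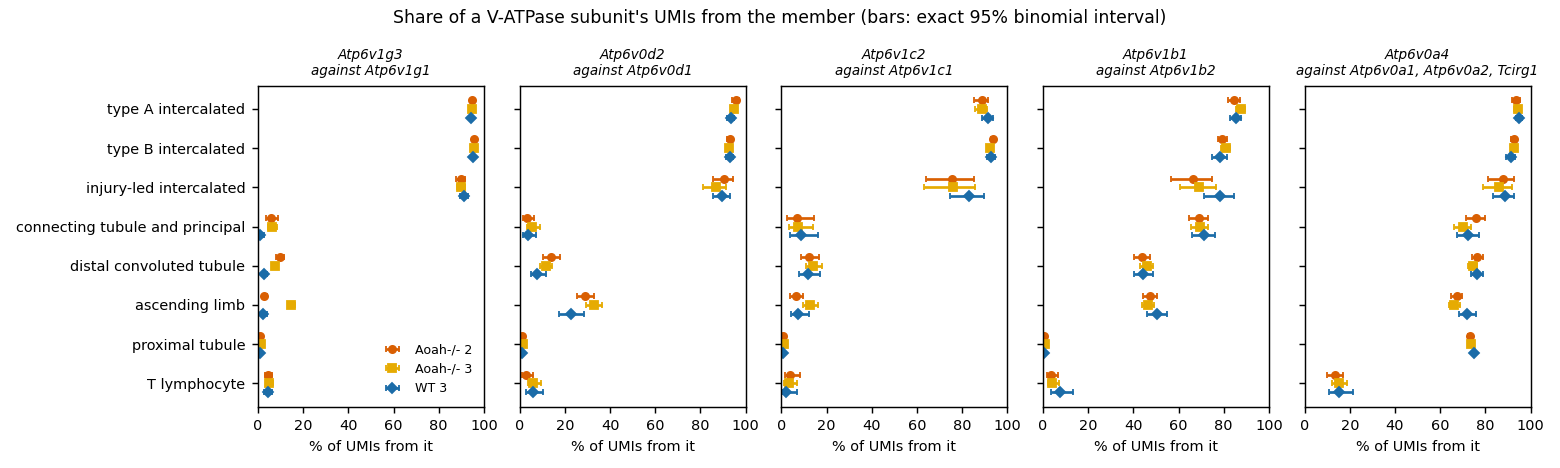
Percent of a subunit's UMIs that came from the gene named above each panel rather than from its sister genes (x axis), in 8 classes of cells (y axis), with 1 point per library and exact 95% binomial intervals. Atp6v1g3 and Atp6v1c2 are above 75% in the 3 intercalated groups and under 9% in principal cells, whereas Atp6v1b1 and Atp6v0a4 stay at 69% or more in principal cells.

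Of the carbonic anhydrases, the cytosolic enzyme Car2 was at 2409, 2864 and 2463 CPM in type A and at 2722, 3429 and 2685 CPM in type B cells. Principal cells had 735, 731 and 568 CPM, and proximal tubule cells 415, 426 and 289 CPM. Both intercalated types were above these classes in each library. Car12, a membrane enzyme with its active site outside the cell, was at 509, 544 and 477 CPM in type A cells. It was at 1383, 1594 and 1204 CPM in type B cells, above type A in every library. Both Aoah-/- type B values had intervals (1338 to 1430 and 1540 to 1650) above that of WT (1138 to 1273). In principal cells the Car2 intervals of both Aoah-/- mice (698 to 773 and 697 to 767) were above that of WT (533 to 606). Proximal tubule was the next class for Car12 (119, 119 and 88.8 CPM).

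The ammonia transporters were ordered in another way. Rhbg, a transporter of the basolateral membrane, was at 891, 723 and 818 CPM in type A cells and at 356, 478 and 403 CPM in type B cells. Principal cells had 254, 259 and 265 CPM. The groups did not overlap, and the order type A, type B, principal cells held in each mouse. Rhcg, which lies in the apical and basolateral membranes, was at 492, 414 and 564 CPM in type A and 316, 343 and 423 CPM in type B cells. In principal cells it was at 569, 548 and 646 CPM, above type A in each mouse, and in the distal convoluted tubule at 95.5, 120 and 138 CPM. The excess of principal over type A cells was 1.21-fold on average, and their intervals were apart in only 1 of the 3 libraries. Rhcg was lower in both Aoah-/- mice than in the WT mouse in type A, type B and principal cells. The intervals were clear of WT in type B (294 to 338 and 318 to 369 against 385 to 465) and principal cells (537 to 602 and 518 to 578 against 608 to 685) but not in type A cells, where that of Aoah-/- mouse 2 (449 to 538) overlapped the WT interval (519 to 612).

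Foxi1 was at 776, 567 and 625 CPM in type A and 646, 551 and 556 CPM in type B cells. The types overlapped, and the spread between the Aoah-/- mice in type A cells (567 to 776 CPM) held the WT value. No other named class had a mean above 8.48 CPM.

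The comparison between intercalated types within each library showed genes in both directions. Summed over the 10 genes, type B cells were 1.26-fold higher than type A cells (mean log2 ratio of A over B -0.33, SD 0.05, n = 3 libraries). Past 1.5-fold in all 3 libraries, Atp6v1c2 (1.92-fold, log2 -0.94, SD 0.14) and Car12 (2.72-fold, log2 -1.44, SD 0.11) were higher in type B, 2 of 10 genes against 4.51% of the 2885 genes tested. Rhbg was higher in type A (1.97-fold, log2 0.98, SD 0.36), 1 of 10 genes against 3.47%. Its ratio was least in Aoah-/- mouse 3 (log2 1.32, 0.60 and 1.02). Its mean log2 was above 0 in all 10 alternative choices of cells (0.37 to 1.32), but under 7 of these it was not past 1.5-fold in all 3 libraries. Atp6v1c2 and Car12 stayed past it under all 10. These ratios describe cells that were clustered before they were compared.

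Smaller differences had the same sign in each library. Atp6v1g3 was 1.51-fold higher in type B on average (log2 -0.60, SD 0.06), but not past 1.5-fold in each library. Under 4 of the alternative choices of cells, and with the mean of per-cell CPM, the count higher in type B was 3. Atp6v0d2 (log2 -0.20, SD 0.07) and Car2 (log2 -0.19, SD 0.07) were also higher in type B. Atp6v1b1 (1.32-fold, log2 0.40, SD 0.11) and Rhcg (1.36-fold, log2 0.44, SD 0.19) were higher in type A. Foxi1 (log2 0.16, SD 0.11) differed by little and Atp6v0a4 (log2 0.04, SD 0.14) by less than its spread. Over the 10 genes the median log2 ratio was -0.08, and over all genes tested it was -0.07. Type B cells were deeper, with medians of 18752, 17984 and 17827 UMIs against 10396, 10611 and 11741 in type A cells. The part of this depth in the ratios was not tested. Type A cells of the Aoah-/- mice also held erythroid transcripts, 2916, 1740 and 218 CPM over 6 markers, of which 47.8 and 91.7% lay in 1 cell in each Aoah-/- library.

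**Figure D4:**
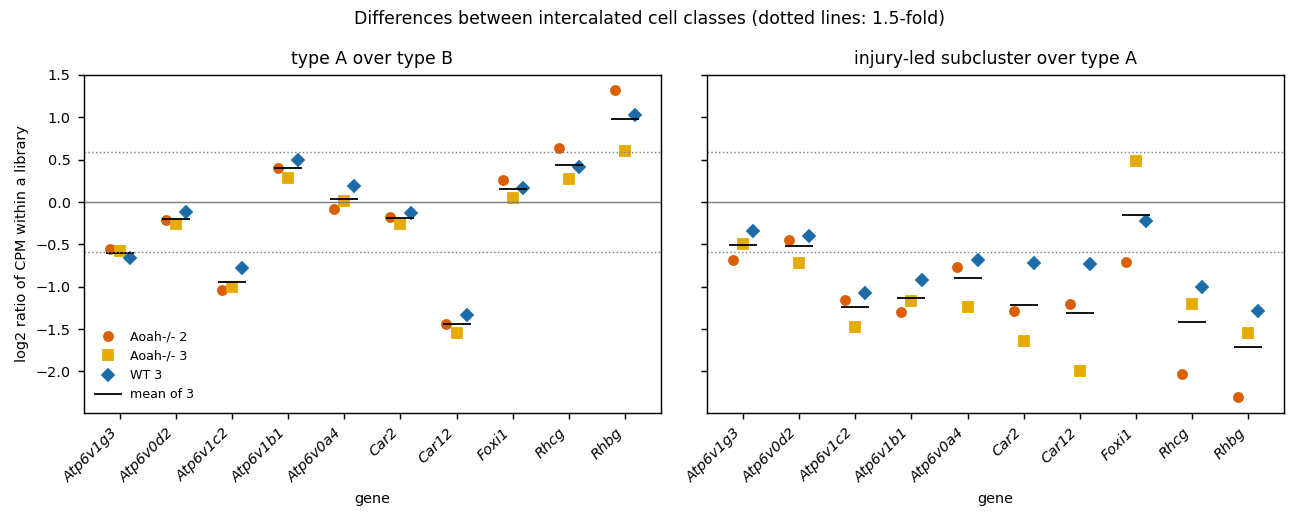
Log2 ratio of CPM within each library, type A over type B cells (left) and injury-led subcluster over type A cells (right), with 1 point per library, black dashes for the mean of 3 and dotted lines at 1.5-fold. On the left Car12 and Atp6v1c2 lie below the lower dotted line and Rhbg above the upper one in all 3 libraries, and on the right 7 of the 10 genes lie below the lower line.

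The other subunits of the pump leaned to type B by small amounts. Of 20 listed V-ATPase subunits and accessory proteins outside the 10 genes, 13 were tested, and all 13 had a mean log2 of A over B below 0, with a median of -0.30 against -0.07 over all genes tested. Past 1.5-fold in all 3 libraries there were 0 of 13, near the shares of all genes (3.47 and 4.51%). Atp6ap2, an accessory protein of V0, was the nearest (log2 -0.58, SD 0.03). The catalytic subunit Atp6v1a was at 1932, 1948 and 2073 CPM in type A and 2048, 2225 and 2102 CPM in type B cells. Of 16 acid-base partners, 8 were tested. Slc4a1 and Oxgr1 were higher in type A, and Slc26a4, the membrane carbonic anhydrase Car15 and the alkali-sensing receptor Insrr were higher in type B. Of these, all but Car15 were markers of the types and so no result. Of 7 transcription factors of intercalated cells, a list that holds Foxi1 itself, 5 were tested. Dmrt2 and Hes1 were higher in type A and Hmx2 higher in type B cells, and Dmrt2 and Hmx2 were markers.

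In the injury-led subcluster the acid secretion genes were lower than in type A cells. Of the 10 genes, 7 were at least 1.5-fold lower in all 3 libraries, against 6.76% of the 3093 genes tested, and 9 were lower by any amount in all 3, against 20.6%. The median log2 difference was -1.17 over the 10 genes and 0.23 over all genes tested. Their sum was 5884, 6670 and 7805 CPM against 11570, 12234 and 11759 CPM in type A cells (1.76-fold lower, log2 -0.81, SD 0.20). The 16 intercalated markers, which hold type A markers, were lower as well, at 3464, 3912 and 4600 CPM against 7478, 8039 and 7898 CPM. The lower level is thus not particular to the acid secretion genes. Both groups were clustered, and type A was named by its markers, before they were compared. The count of 7 was 2 where the 10 genes were kept for clustering, 4 with at least 500 genes per cell and 5 without cells holding an immune marker UMI, and no such subcluster formed at a finer clustering or with 1 lowest UMI total for all libraries.

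The ammonia transporters were lowest in relation to type A. Rhbg was at 180, 248 and 336 CPM, 3.28-fold lower than in type A cells (log2 -1.71, SD 0.53). Rhcg was at 120, 179 and 282 CPM, 2.67-fold lower (log2 -1.41, SD 0.55). All 3 values of each were below all 3 type A values. Both carbonic anhydrases were lower as well. Car12 was at 220, 137 and 287 CPM (2.48-fold lower, log2 -1.31, SD 0.64) and Car2 at 991, 922 and 1493 CPM (2.32-fold lower, log2 -1.21, SD 0.46).

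The subunits differed among themselves. Atp6v1c2 was at 177, 153 and 241 CPM (2.35-fold lower than in type A, log2 -1.23, SD 0.21) and Atp6v1b1 at 250, 319 and 347 CPM (2.18-fold lower, log2 -1.13, SD 0.19). Atp6v0a4 was at 404, 345 and 526 CPM (1.86-fold lower, log2 -0.90, SD 0.30). Atp6v1g3, at 2493, 3029 and 3099 CPM, and Atp6v0d2, at 574, 544 and 661 CPM, were 1.42-fold and 1.44-fold lower and did not pass 1.5-fold in each library. The shares from the intercalated genes were lower than in type A cells too, 66.4, 69.0 and 78.5% for Atp6v1b1 and 75.7, 75.8 and 83.2% for Atp6v1c2. Atp6v1g3 gave 89.78, 90.03 and 91.30% of the UMIs of its pair, also below type A cells (94.96, 94.71 and 94.50%).

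Foxi1 was the exception, at 474, 795 and 534 CPM. It was lower than in type A cells in Aoah-/- mouse 2 and the WT mouse and higher in Aoah-/- mouse 3 (mean log2 -0.15, SD 0.60). Of the other pump subunits, 13 were tested, and Atp6v1a (2.19-fold) and Atp6ap2 (1.97-fold) were lower, 2 of 13 against 6.76% of all genes, with a median log2 of -0.33. Of 4 partners tested, 3 were lower. Slc4a1 (11.9-fold) and Oxgr1 (5.34-fold) were markers by which the types were named and so no result, and Bsnd (4.05-fold), the beta subunit of the basolateral chloride channels, was a marker of intercalated cells as a whole. Of 4 transcription factors tested, Foxi1 among them, the type A marker Dmrt2 was lower (2.21-fold).

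Injury genes in these cells did not share 1 order between the mice. Lcn2 was at 1512, 1000 and 43 CPM, Cxcl1 at 461, 476 and 60 CPM and Sox9 at 267, 319 and 57 CPM, each lowest in the WT mouse. Icam1 was at 290, 153 and 152 CPM. The 6 injury genes of the marker lists, Lcn2 among them, summed to 13571, 12468 and 14123 CPM, highest in the WT mouse, against 2818, 2614 and 1828 CPM in type A cells. The 6 type A markers summed to 1602, 1606 and 2438 CPM. The share of mitochondrial UMIs was 7.71, 9.68 and 10.0% (medians) against 24.998, 23.38 and 21.19% in type A cells. With at most 20% mitochondrial UMIs (67 injury-led cells), the mean log2 to type A ran from -1.81 (Rhbg) to -0.28 (Foxi1). The count with nuclear genes only is given below, and the part of this share was not tested further. In the WT mouse, 1 of the 27 cells held 99.0% of the group's erythroid marker UMIs, which summed to 20252 CPM. As a share of type A and injury-led cells together, injury-led cells were 19.8, 16.4 and 24.1%.

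Between genotypes, the level of the acid secretion genes as a group was close in type A and type B cells. Their sum in type A cells was 11570, 12234 and 11759 CPM (log2 of the Aoah-/- mean over WT 0.02, SD between the Aoah-/- mice 0.06). In type B cells it was 14241, 16075 and 14517 CPM (log2 0.06, SD 0.12). In both types the Aoah-/- mice lay on either side of the WT mouse. Past 1.5-fold in both Aoah-/- mice there were 0 of 10 genes in type A cells, against 1.98% of the 2872 genes tested, and 0 of 10 in type B cells, against 1.53% of 2875. With 10 genes, counts of 0 are near these backgrounds. The log2 differences ran from -0.32 (Rhcg) to 0.14 (Car12) in type A and from -0.36 (Rhcg) to 0.31 (Car12) in type B cells. The medians over the 10 genes were 0.00 and 0.05, against -0.09 and -0.06 over all genes tested.

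By a weaker rule, that the intervals of both Aoah-/- mice were clear of the WT interval on 1 side, 1 gene stood apart in type A cells and 2 in type B cells, against 4.14% and 6.3% of the genes tested. They were Atp6v1c2 in type A (log2 -0.30, SD 0.07) and Car12 (log2 0.31, SD 0.14) and Rhcg (log2 -0.36, SD 0.09) in type B. The shares of 4.14% and 6.3% are not matched for level. The genes tested reach down to 50 CPM, and an interval narrows relative to its level as the count rises. Rhcg was also lower in type A cells (log2 -0.32, SD 0.18) and in principal cells (log2 -0.21, SD 0.04), for which no share over all genes was computed. These differences are under 1.3-fold, and the variation among WT mice is not known from 1 mouse. In principal cells, 6 of the 10 genes were above WT in both Aoah-/- mice and 3 below. There 3 had both intervals clear of WT, among them Car2, which was higher (735, 731 and 568 CPM). In proximal tubule all 10 were above WT in both Aoah-/- mice (log2 0.20 to 0.99), 4 of them with both intervals clear. For these counts in principal cells and proximal tubule no share over all genes was computed, and the part of free RNA was not tested. Only 6 genes in principal cells and 3 in proximal tubule were at a level to be tested, and 0 of these passed 1.5-fold.

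In the injury-led subcluster 9 of the 10 genes were below WT in both Aoah-/- mice, against 30.3% of the 3266 genes tested there. Car2 (log2 -0.64, SD 0.07) and Rhcg (log2 -0.91, SD 0.41) were past 1.5-fold lower in both, 2 of 10 against 2.85%. By the interval rule only 1 of the 10 genes had both Aoah-/- intervals clear of that of WT, and no share over all genes is given for this count. The comparison rests on 24, 25 and 27 cells. The sum of the type A markers given above was also lower in both Aoah-/- mice, and its part in the difference was not tested. The sum of the listed injury genes was highest in the WT mouse. Lcn2 (1512, 1000 and 43 CPM), Cxcl1 (461, 476 and 60 CPM) and Sox9 (267, 319 and 57 CPM) were lowest there. The part of injury in the difference was not tested.

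The lists around the 10 genes gave few differences between genotypes. Of the other pump subunits 0 of 12 tested in type A and 0 of 13 in type B cells were past 1.5-fold in both Aoah-/- mice. Of the partners, Slc4a9, a bicarbonate transporter (45, 56 and 87 CPM), was lower in type A cells, 1 of 5 tested against 1.29% of all genes tested. Slc4a9 was a listed type B marker by which the types were named, so its level is not independent of the naming. Atp4a, the catalytic subunit of the gastric H+/K+-ATPase (61, 71 and 30 CPM), was higher in type B cells, 1 of 8 against 0.8%. Both are at low levels. Of the transcription factors, a list that holds Foxi1 itself, 0 of 4 passed in either type.

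Type A cells were 0.454% (0.368 to 0.554), 0.645% (0.538 to 0.767) and 0.467% (0.373 to 0.577) of kept cells, a difference of the Aoah-/- mean from WT of 0.0825 percentage points (SD between the Aoah-/- mice 0.135). Type B cells were 0.651% (0.547 to 0.768), 0.579% (0.478 to 0.695) and 0.368% (0.285 to 0.467). Here both Aoah-/- intervals were above that of WT, by 0.247 points on average (SD 0.0506). Among type A and type B cells together, type B cells were 58.9, 47.3 and 44.1%, with Aoah-/- mouse 3 near WT. Tissue digestion and the calling of cells also set such shares. Proximal tubule cells were 37.7, 24.6 and 51.2% of kept cells, most in the WT mouse, and their part in the type A and type B shares was not tested.

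Among type B cells Rhbg was the gene most often without a UMI. There 46 of 139, 21 of 114 and 26 of 67 had no Rhbg UMI, whereas 0, 0 and 5 had no Atp6v1g3 UMI. To compare cells at equal depth, each was thinned to 3000 UMIs, which left out 8, 22 and 4 type A and 1, 6 and 8 type B cells. The median cell then held 8, 9 and 8 of the 10 genes in type A, 8, 8 and 9 in type B, 6, 6 and 7 in the injury-led subcluster, 3 in principal cells of each mouse and 0 in T lymphocytes. All 10 genes were seen in 11 of 89, 14 of 105 and 15 of 81 type A cells and in 22 of 138, 24 of 108 and 13 of 59 type B cells, and in 0 principal cells.

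Foxi1 was seen in 71.9, 66.7 and 71.6% of thinned type A cells (unthinned medians of 10929, 11680 and 11969 UMIs) and in 79.7, 66.7 and 71.2% of thinned type B cells. T lymphocytes, which lack it, showed it in 0.389, 0.342 and 0% of cells (0 of 514 in WT, which allows up to 0.715%), from medians of 3674, 3722 and 3777 UMIs. Atp6v1c2 was seen in 60.7, 58.1 and 81.5% of type A cells and in 0.389, 0.457 and 0% of T lymphocytes. These shares come from the same UMIs as the lower Atp6v1c2 CPM in type A cells of both Aoah-/- mice and are not separate evidence. Car2 was seen in 13.8, 14.3 and 11.5% of T lymphocytes, so a Car2 UMI alone does not mark a cell as intercalated.

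Outside the tubule, Atp6v0d2, which osteoclasts and macrophages are also known to use, was in 60, 72 and 1 UMIs of granulocytes (37.7, 41.1 and 2.06 CPM). Macrophages had 87, 316 and 33 UMIs (15.4, 36.0 and 7.05 CPM). Relative to Atp6v1g3, the ratio was 7.49, 20.6 and 5.41 times that in intercalated cells for macrophages and 12.3, 7.23 and 1.11 times for granulocytes, and the part of free RNA was not tested. The macrophages came from 2 clusters in unequal mixes, with 868 and 819 cells for Aoah-/- mouse 2, 140 and 1317 for mouse 3 and 1112 and 613 for WT, so no order of genotypes is read from these values.

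Genes whose pattern was most like the mean of the 10 were sought over 17 classes, by the lowest Pearson r of log2(CPM + 10) in the 3 libraries. They were, with the lowest r of each, Tmem117 (0.978), Tmem52 (0.967), Oxgr1 (0.966), Malrd1 (0.95), Avpr1a (0.94), Rcan2 (0.94), Guca2a (0.94), Slc4a9 (0.94), Plekhd1 (0.94) and the pump subunit Atp6v1h (0.94). Of these, Oxgr1 and Slc4a9 were markers by which the cells were named. The 10 genes themselves had r from 0.83 (Car2 in WT) to 0.97 (Atp6v1c2 in WT), each with a mean that holds the gene itself. The classes of a library share its depth, and r is a description of these 17 points.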

How the data were processed

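The authors deposited, per library, raw UMI counts per gene and called cell barcode. The submitters' notes name Cell Ranger 3.1.0, STAR, Seurat 4.2.0 and mm10, whereas the matrix headers name Cell Ranger 6.1.2. Barcodes with under 200 genes or over 50% mitochondrial UMIs were left out. All libraries were clustered together (scanpy 1.11.5, igraph 0.11.9, numpy 2.4.6, scipy 1.17.1, Python 3.11.15) on 2000 variable genes, 50 principal components and Leiden resolution 1.0, with the 10 genes and Aoah left out. Clusters were named from listed markers, at least 3 of them detected, and intercalated-like cells were divided again (20 components, resolution 0.5). No doublet caller was run, and a subcluster led by genes of another cell type was kept apart. Counts were summed per library and class and divided by the class total (CPM). The 1.5-fold call between genotypes in type A and type B cells and the search for genes of like pattern were tested on simulated data. The ratios between classes of cells and the injury-led comparisons were not. Ratios over all genes used a pseudocount of 1 CPM.

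The genes, markers and lists were chosen with earlier results of these data known. Genes named are the 10, their sister subunits, listed genes past 1.5-fold and the 10 of most like pattern. Genes leading a subcluster, and Atp6v0d2 in granulocytes and macrophages, were named after their values were seen.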

Additional observations from a re-analysis of the deposited data

How the results depend on the processing

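No paired analysis was made. The labels give replicate numbers, with 3 in both genotypes, but name no pairs of mice. Of 139 values of the main comparisons under other settings, 109 stayed within the limits set for them, and those that changed sign were differences smaller than the SD between the Aoah-/- mice: the type A share and the sums in each type. For single genes, 256 of 280 values moved by less than the SD. Leaving out 1 of the 2 Aoah-/- libraries keeps a level, sum or share within its SD by construction. Such values are in both counts and do not measure stability. The count of genes higher in type A than type B (1, Rhbg) was 0 with 1 lowest UMI total for all libraries, with at least 500 genes per cell, at Leiden resolution 2, with the 10 genes kept for clustering, with the mean of per-cell CPM, with types set by Slc4a1 or Slc26a4 UMIs, at 2-fold, with the injury-led cells counted as type A, and with types set by the larger marker sum. The last pair of settings, and leaving out cells rich in erythroid UMIs, were chosen after seeing the data, as were all alternatives for the counts between types and for injury-led cells. The count higher in type B (2) was 1 at 2-fold and 3 at resolution 2, with per-cell means, with Slc4a1 or Slc26a4 UMIs, with injury-led cells in type A and with the larger marker sum. The count lower in injury-led cells (7) was 4 with 500 genes, 2 with the 10 genes kept for clustering, 3 at 2-fold, 5 without cells holding an immune marker UMI, 6 with per-cell means and 8 with nuclear genes only, and no such subcluster formed with 1 lowest UMI total or at resolution 2.

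The share of type A cells differed between genotypes by -0.091 points with types set by Slc4a1 or Slc26a4 UMIs. That of type B cells differed by 0.19 points with at most 20% mitochondrial UMIs, 0.10 at resolution 2, 0.71 with Slc4a1 or Slc26a4 UMIs, 0.11 without intercalated-like cells holding an immune marker UMI and 0.87 with the larger marker sum. The log2 genotype difference of the type A sum was 0.10 with 20% mitochondrial UMIs, 0.075 with 1 lowest UMI total, 0.18 with Slc4a1 or Slc26a4 UMIs and 0.14 with the larger marker sum. The log2 sum of A over B was -0.39 with 1 lowest UMI total, -0.42 with 500 genes, -0.47 at resolution 2, -0.39 with per-cell means, -0.45 with Slc4a1 or Slc26a4 UMIs, -0.48 with injury-led cells in type A and -0.52 with the larger marker sum. The cause of these differences was not tested.

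Without 1 library, the sum differed between genotypes by -0.02 to 0.06 in type A and -0.03 to 0.15 in type B cells, the A over B sum was -0.35 to -0.30, and the share differences were -0.01 to 0.18 and 0.21 to 0.28 points. Counts were 0 to 0 between genotypes in each type, 1 to 1 and 2 to 2 between types and 7 to 7 for injury-led cells. A gene is counted only where every library passes, so leaving 1 out could keep or raise these counts but not lower them. Leaving out the WT library gave no genotype value. The lower Atp6v1c2 of Aoah-/- type A cells had the other sign in 1 of 14 alternatives (-0.38 to 0.00), whereas Rhcg was lower in all of them in type A (-0.45 to -0.12) and type B cells (-0.48 to -0.28), and Car12 higher in type B (0.10 to 0.45). In type A cells Car12 (0.14) was -0.19 with at most 20% mitochondrial UMIs and -0.08 without cells holding an immune marker UMI. Depth limited genes under 50 CPM and the 76 injury-led cells.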
